A study of Homo sapiens with 9 samples.

Results

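The 9 arrays were read here as 1 contrast: the 6 arrays labelled as overexpressing an isoform of tissue factor pathway inhibitor (TFPI), as a single group, against the 3 arrays labelled empty vector. All 9 of the 9 arrays of the series entered the contrast, and 17482 of the 33297 probe sets on the array were kept because their highest log2 signal over the 9 arrays was at least 5. A probe set is the group of probes that measures 1 transcript, and a log2 signal is the logarithm of its brightness, so that a difference of 1 is a doubling. The TFPIα mean and the TFPIβ mean were given equal weight, and the replicate number in the titles was kept as a block, so that each TFPI array was set against the empty vector array of its own number.

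The labels give the cells as SK-BR-3, a human breast cancer line known for amplified ERBB2, the gene of the HER2 receptor. Stable lines were made by transfection with the pcDNA3.1/V5/His-pTOPO plasmid carrying TFPIα cDNA, TFPIβ cDNA or no insert, and were kept in RPMI1640 with fetal bovine serum. The labels name puromycin as the selecting drug and the methods name neomycin, and all groups, the controls included, were selected. Each group was 1 stably transfected pool with 3 RNA isolations, so the construct and the pool that carried it cannot be told apart, and the p-values measure the spread between isolations.

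TFPI is a Kunitz-type protease inhibitor that blocks factor Xa and the complex of tissue factor with factor VIIa, the step that starts clotting. TFPIα is secreted and carries a basic tail, while TFPIβ is shorter and is held at the cell surface by a glycolipid anchor. Tissue factor also signals through protease-activated receptors, and breast cancer cells are known to express both it and its inhibitor.

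The deposited signal of the TFPI probe set, summarised by RMA, could not check the labels. By the study's account the inserted cDNAs held the coding sequence alone and were missed by array probes for the untranslated ends of the transcript. The signal of this probe set therefore need not follow the inserted cDNA. The study also reports that PLIER, another summary that drops dim probes, gave higher TFPI in both lines. That summary and the study's other assays of TFPI were not analysed here. The log2 signal of the probe set was 5.66, 5.81 and 5.51 with the TFPIα label, 5.55, 5.79 and 5.81 with the TFPIβ label and 5.81, 6.48 and 6.45 with the empty vector label. The arrays labelled TFPI lay at or under the controls, with overlap at replicate 1 of the empty vector. The pooled log2 fold change was -0.56 (SE 0.13, adjusted p = 0.301 by limma with Benjamini-Hochberg adjustment), with -0.59 for TFPIα and -0.53 for TFPIβ. Every direction below is that of the arrays labelled TFPI against the arrays labelled empty vector.

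The labelled cell type was also checked against its defining markers. Of the 16 luminal markers listed 8 were measured. KRT18, XBP1 and MUC1 had mean log2 signals of 10.40, 9.21 and 8.16 over the 9 arrays. The others measured lay near the signal floor, KRT8 at 5.86, GATA3 at 5.31, KRT19 at 4.88, TFF1 at 4.88 and FOXA1 at 4.83. ERBB3, ESR1, PGR, EPCAM, ELF3, TFF3 and SPDEF were under the signal floor in every array. Of the 10 genes of the ERBB2 amplicon 8 were measured, with ERBB2 at a mean of 5.88, GRB7 at 5.15 and MIEN1 at 7.81. Of the 15 basal markers 11 were measured, with KRT5 and KRT14, the keratin pair of basal epithelial cells, at means of 12.64 and 12.43. Among 18417 genes ranked by mean signal over the 9 arrays, KRT5 lay at percentile 99.97, KRT14 at 99.95, KRT18 at 98.74 and XBP1 at 96.07. MUC1 lay at 90.37, MED24 at 88.9, MIEN1 at 87.15, MED1 at 79.99, CDK12 at 77.27 and STARD3 at 69.92. ERBB2 lay at 59.03, KRT8 at 58.73, PGAP3 at 50.58, GRB7 at 46.39, ERBB3 at 20.24 and EPCAM at 8.427. Probe sets differ in how they respond, so ranks of different genes are uncertain. They do not settle whether the cells match their label, which was not tested further. The basal list had a median log2 fold change of -0.19 and the luminal list of -0.11 in the pooled contrast. In bulk RNA, fewer cells of a type and less RNA per cell cannot be told apart. The leukocyte markers PTPRC, CD3E, CD3D, MS4A1, ITGAM and LYZ were under the signal floor in every array. The 3 of 10 leukocyte markers that were measured were CD14, CD68 and NKG7, at means of 7.67, 7.46 and 5.24 over the 9 arrays. CD14 lay at percentile 85.77, CD68 at 83.28 and NKG7 at 47.92. The mean signal of these 3 was 6.44 to 6.97 in the arrays labelled TFPI and 6.76 to 7.35 in the controls. Of the endothelial markers 3 of 8 were measured, at a mean of 5.45 to 5.74 against 5.44 to 5.65. Of the 11 fibroblast and mesenchymal markers 6 were measured. Their mean signal per array ran from 6.50 to 7.21 in the arrays labelled TFPI and from 6.57 to 7.33 in the empty vector arrays. Over the 9 arrays VIM had a mean of 10.55 (percentile 98.9), DCN of 10.13, COL1A1 of 7.07, FAP of 5.56, POSTN of 3.73 and LUM of 3.63. PDGFRA, PDGFRB, COL1A2, COL3A1 and THY1 were under the floor. DCN, the matrix proteoglycan decorin, was at 9.48 to 10.32 with a median of 9.67 in the arrays labelled TFPI and at 10.52, 11.14 and 10.91 in the empty vector arrays, a log2 fold change of -1.08 (SE 0.17, adjusted p = 0.198). The part of these markers in the other results was not tested.

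No probe set passed an adjusted p under 0.05 together with a fold change of at least 2, which is 0.00% of the 17482 tested, and the lowest adjusted p was 0.0972. Under an adjusted p of 0.10 with the same fold limit, 3 probe sets passed, 0.0172% of those tested: ATP1B1 was higher, and NEDD4L and IL1A were lower. An unadjusted p under 0.05 was reached by 2225 probe sets, 1188 of them higher (6.80%) and 1037 lower (5.93%). A fold change of at least 2 was found in 46 probe sets upward and 41 downward. Once the mean of each replicate number had been taken out, all 6 arrays labelled TFPI lay above all 3 empty vector arrays for 675 probe sets (3.86%) and below them for 793 (4.54%). Of the probe sets kept, 832 reached the signal floor in arrays labelled TFPI only and 301 in empty vector arrays only, and each of these was kept through the group where it is high. List members kept through empty vector arrays only included CHAC1, VLDLR, CFI, IFNLR1, STAT5A, CCL5, CX3CL1 and IL32. Those kept through arrays labelled TFPI only included POLE2, JAK2, SERPINB3 and SAMD9L. A difference toward that group is no support for such members. The shares above are the background for the gene groups that follow, where "higher" and "lower" state the sign of the contrast and no member is called changed. The gene lists were chosen with earlier results of these data known. Their counts and medians therefore describe these arrays, and a share above the background is no independent support.

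ATP1B1 encodes the β1 subunit of the sodium and potassium pump, which keeps the ion gradients of the cell. Its log2 signal was 7.36, 7.48 and 7.43 in the TFPIα arrays, 6.78, 6.81 and 6.82 in the TFPIβ arrays and 5.61, 5.77 and 5.02 in the empty vector arrays. All 6 arrays labelled TFPI lay more than a unit over each control of the same number, and the isoforms did not overlap each other. The pooled log2 fold change was 1.65 (SE 0.14, adjusted p = 0.0972), a 3.13-fold difference, with 1.95 for TFPIα and 1.34 for TFPIβ, and the adjusted p of the difference between the isoforms was 0.32. The other pump genes gave no such values: ATP1B3, another β subunit, had a log2 fold change of 0.12 and FXYD3, a regulator of the pump, of 0.19, and 1 of the 7 measured pump genes had an unadjusted p under 0.05.

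NEDD4L, a ubiquitin ligase known for marking the epithelial sodium channel for removal, had the lowest unadjusted p of all probe sets, 8.05e-06. Its log2 signal was 7.09, 6.45 and 7.06 with TFPIα, 7.15, 6.47 and 6.82 with TFPIβ and 8.03, 7.53 and 8.06 with empty vector. Both isoforms lay together, and replicate 2 was the lowest in every group. The log2 fold change was -1.03 (SE 0.08, adjusted p = 0.0972), with -1.01 for TFPIα and -1.06 for TFPIβ.

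IL1A encodes interleukin-1α, a cytokine that epithelial cells hold in store and that acts through the interleukin-1 receptor. Its log2 signal was 5.01, 5.78 and 5.85 with TFPIα, 5.77, 6.49 and 5.83 with TFPIβ and 6.97, 7.67 and 7.78 with empty vector. No array labelled TFPI reached the lowest control. The log2 fold change was -1.68 (SE 0.15, adjusted p = 0.0972), a 3.21-fold lower signal.

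**Figure D1:**
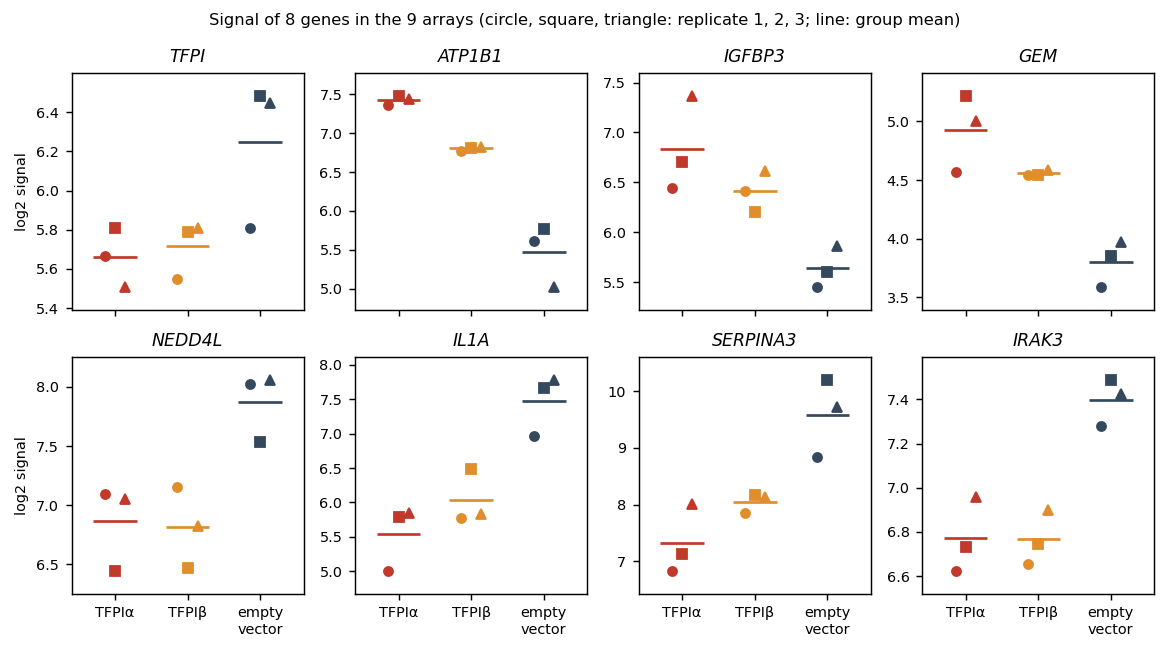
Log2 signal (vertical axes, each with its own range) of TFPI and 7 other genes in the arrays labelled TFPIα, TFPIβ and empty vector; each point is 1 array, its shape gives the replicate number and the line is the group mean. The TFPI probe set, whose signal need not follow the inserted cDNA, runs from 5.51 to 6.48, ATP1B1 runs from 5.02 in the lowest control to 7.48, and NEDD4L, IL1A, SERPINA3 and IRAK3 lie below the controls in all 6 arrays labelled TFPI.

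The other genes of lowest unadjusted p on the higher side had adjusted p-values from 0.152 to 0.22. IGFBP3, a carrier of insulin-like growth factors, was at 6.21 to 7.36 with a median of 6.53 in the arrays labelled TFPI and at 5.45, 5.60 and 5.87 in the controls, a log2 fold change of 0.99 (SE 0.12). GEM, a small GTPase that dampens voltage-gated calcium channels, was at 4.55 to 5.22 against 3.59, 3.85 and 3.97, a log2 fold change of 0.94 (SE 0.11). IGFBP3 did not overlap the controls. GEM, like AKR1B10, KIAA0040 and H2AC12, reached the signal floor in arrays labelled TFPI only, so it was kept through the group where it is high and its separation from the controls is no support. AKR1B10, an aldo-keto reductase, had a log2 fold change of 0.92, TUBA1A, an α-tubulin, of 0.65, TMEM14A of 0.67, KIAA0040 of 0.50 and CPNE3, a calcium-dependent phospholipid-binding protein, of 0.45. The core histone genes H2AC12 and H4C4, which are transcribed in S phase and belong to a family of near-identical copies, had log2 fold changes of 1.08 and 1.00. For H4C4 the value was 1.53 with TFPIα and 0.47 with TFPIβ, with an unadjusted p of 0.000565 and an adjusted p of 0.32 for that difference.

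The other genes on the lower side had adjusted p-values from 0.12 to 0.152, and all 6 arrays labelled TFPI lay below the 3 controls for each of them. SERPINA3, the acute-phase antiprotease α1-antichymotrypsin, was at 6.83 to 8.17 with a median of 7.93 in the arrays labelled TFPI and at 8.83, 10.20 and 9.72 in the controls, a log2 fold change of -1.90 (SE 0.24) or a 3.72-fold lower signal. One of the probe sets of SAA2, a serum amyloid A protein, had a log2 fold change of -1.81 (SE 0.23), and the other, brighter one of -0.64. SAA1 and SAA2 are near-identical, so how their signal divides is uncertain. UGCG, which makes glucosylceramide, had a log2 fold change of -1.06, RIPOR2 of -0.82, CSF3, the granulocyte colony-stimulating factor, of -0.69 and SNED1, a matrix protein, of -0.68. IRAK3, an inhibitory member of the interleukin-1 receptor kinase family, was at 6.62 to 6.96 with a median of 6.74 in the arrays labelled TFPI and at 7.28, 7.49 and 7.43 in the controls, a log2 fold change of -0.63 (SE 0.07), with -0.63 for each isoform. LPAR1, a lysophosphatidic acid receptor, had a log2 fold change of -0.51.

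Of the gene groups, the acute-phase and antimicrobial proteins lay lowest. These secreted and granule proteins are made by epithelia and liver under inflammation. Each of the 13 members measured was on the lower side, the median log2 fold change was -0.57 against 0.01 over all probe sets, and 8 of the 13 had an unadjusted p under 0.05, all lower, against 5.93% of all probe sets. S100A9, which pairs with S100A8 as calprotectin, was at 7.36, 6.76 and 9.62 with TFPIα, 8.60, 8.59 and 8.72 with TFPIβ and 10.20, 9.59 and 9.98 with empty vector, a log2 fold change of -1.65 (SE 0.46, adjusted p = 0.312). Replicate 3 of TFPIα stood above the other 5 arrays labelled TFPI and reached the lowest control. S100A8 showed the same high replicate, at 11.78 against 9.66 to 11.38 in the other 5 and 11.84 to 11.98 in the controls. SERPINA1, α1-antitrypsin, had a log2 fold change of -1.07, CSTA, an epithelial cysteine protease inhibitor, of -0.50 and SERPINB1 of -0.37. The count of 8 lay between 4, without replicate 2 of the empty vector, and 10, without replicate 3 of TFPIα.

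The complement genes lay lower as well. Complement is a cascade of plasma proteins, also made by epithelia, that tags and lyses cells. Of 13 measured, 7 had an unadjusted p under 0.05, all lower, and the median log2 fold change was -0.28. Among the components, CFB, the protease of the alternative pathway, was at 7.86, 7.60 and 8.75 with TFPIα, 8.85, 9.45 and 7.93 with TFPIβ and 10.12, 10.70 and 9.93 with empty vector, a log2 fold change of -1.84 (SE 0.39, adjusted p = 0.267). No array labelled TFPI reached the controls. C3, the central component, had a log2 fold change of -0.90, C1S of -0.91 and C1R of -0.89, with TFPIα values of -1.23, -1.38 and -1.42 beside TFPIβ values of -0.57, -0.44 and -0.37. Of the membrane regulators that shield cells, CD55 had a log2 fold change of -0.46 (SE 0.08, adjusted p = 0.252) and CD46 of -0.28. The count of 7 was 2 without replicate 2 or without replicate 3 of the empty vector and 8 without its replicate 1.

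NF-κB is a family of transcription factors held in the cytoplasm by inhibitors until a kinase complex releases them, and several of its targets feed back to switch it off. Of 26 measured genes of the pathway, 9 had an unadjusted p under 0.05, all lower, and the median log2 fold change was -0.16. Among the subunits, NFKB1 had a log2 fold change of -0.35 and NFKB2 of -0.25, and none of the 5 kinase genes had an unadjusted p under 0.05. Of the feedback inhibitors, TNFAIP3, the ubiquitin-editing protein A20, was at 6.15, 7.73 and 7.15 with TFPIα, 6.76, 8.35 and 7.47 with TFPIβ and 7.43, 8.94 and 7.74 with empty vector. The groups overlapped as deposited, because replicate 2 was high in all 3, but within each replicate number both isoforms lay below the control, for a log2 fold change of -0.77 (SE 0.12, adjusted p = 0.201). TNIP1, which binds it, had a log2 fold change of -0.53 and CYLD, a deubiquitinase, of -0.25. Among the targets, TNFAIP2 was at 7.23 to 7.63 with a median of 7.37 in the arrays labelled TFPI and at 8.03, 7.88 and 7.91 in the controls, a log2 fold change of -0.56 (SE 0.08, adjusted p = 0.179). SOD2, the mitochondrial superoxide dismutase, had a log2 fold change of -0.78 and ICAM1, an adhesion receptor for leukocytes, of -0.60. The count of 9 lay between 4, without replicate 2 of the empty vector, and 10, without its replicate 3.

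**Figure D2:**
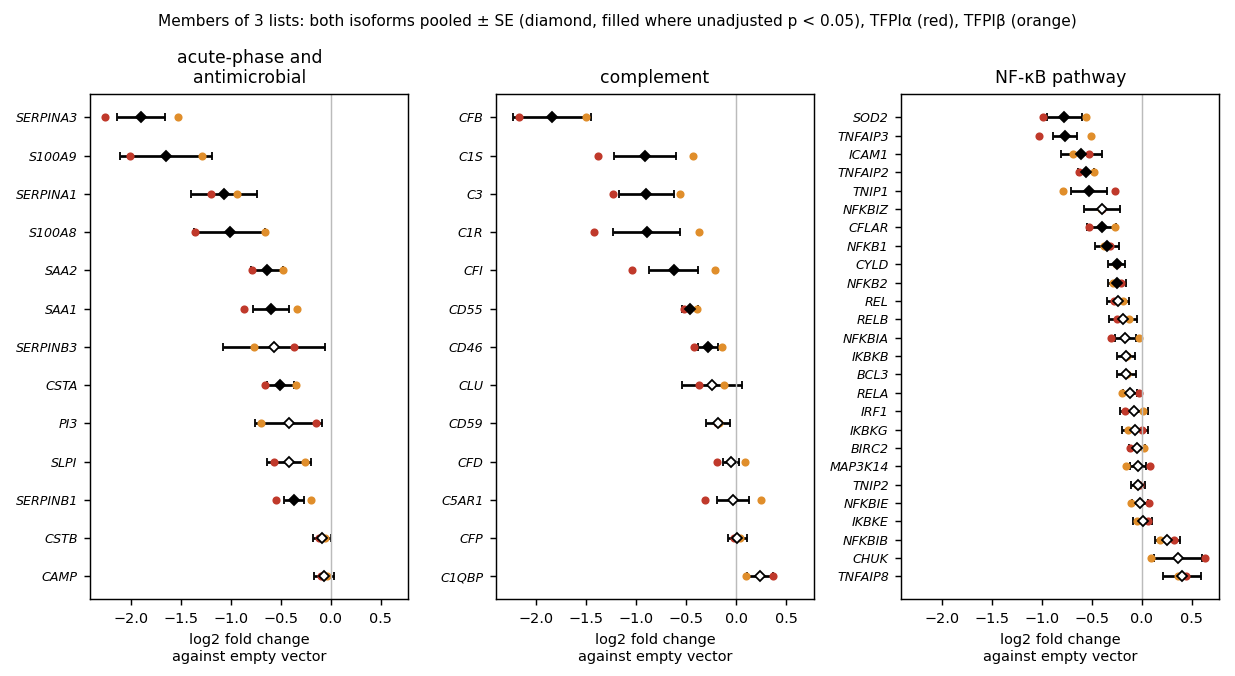
Log2 fold change against empty vector (horizontal axis) of every measured member of the acute-phase, complement and NF-κB lists; diamonds with bars are both isoforms pooled ± SE, filled where the unadjusted p was under 0.05, and red and orange points are TFPIα and TFPIβ. All 13 acute-phase members lie below 0, while TNFAIP8, CHUK, NFKBIB and IKBKE of the NF-κB list and C1QBP and CFP of the complement list lie above it.

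The sequence upstream of these genes is shown for 6 members in which an NF-κB or STAT element was found within 100 bases of the start, beside the 2 genes of lowest adjusted p that have a promoter in the table used and a fold change over 3. The 6 were picked from a longer list, and each was lower at an unadjusted p under 0.05. Not all others with such a match were lower: NFKBIB and CXCL5 had log2 fold changes of 0.26 and 0.06. REL, NFKBIA, CXCL1 and IL6, with a match as well, had an unadjusted p over 0.05. The sequences are RefSeq promoters of GRCh38.p14, written 5′ to 3′ on the gene's strand and ending at the base before the annotated start, and capitals mark matches to GGGNNTTTCC (NF-κB) or TTCNNNGAA (STAT), searched on both strands. Where a gene has several listed starts, the start with the most matches is shown, or the first listed where none has a match.
ATP1B1, chr1:169106440-169106689, plus strand: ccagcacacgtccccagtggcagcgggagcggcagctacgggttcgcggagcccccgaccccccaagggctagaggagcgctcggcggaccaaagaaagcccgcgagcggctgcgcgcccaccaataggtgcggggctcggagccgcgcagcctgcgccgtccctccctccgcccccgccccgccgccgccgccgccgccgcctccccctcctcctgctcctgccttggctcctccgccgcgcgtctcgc
IL1A, chr2:112784494-112784743, minus strand: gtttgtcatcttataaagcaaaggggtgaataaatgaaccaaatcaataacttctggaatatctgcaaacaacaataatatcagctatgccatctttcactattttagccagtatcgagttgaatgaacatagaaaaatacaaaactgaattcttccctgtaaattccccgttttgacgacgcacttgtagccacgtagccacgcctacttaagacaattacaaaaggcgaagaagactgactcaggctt
TNFAIP3, chr6:137867159-137867258, plus strand: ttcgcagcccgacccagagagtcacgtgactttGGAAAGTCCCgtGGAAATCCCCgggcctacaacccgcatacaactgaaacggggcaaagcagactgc
TNIP1, chr5:151081035-151081134, minus strand: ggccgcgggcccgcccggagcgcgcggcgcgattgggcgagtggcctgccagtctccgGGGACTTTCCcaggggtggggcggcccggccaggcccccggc
NFKB1, chr4:102501259-102501358, plus strand: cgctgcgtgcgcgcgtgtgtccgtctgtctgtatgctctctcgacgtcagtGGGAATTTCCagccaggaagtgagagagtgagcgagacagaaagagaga
NFKB2, chr10:102394478-102394577, plus strand: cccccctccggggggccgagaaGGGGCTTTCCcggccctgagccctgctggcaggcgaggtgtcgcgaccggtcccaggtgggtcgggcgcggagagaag
CCL20, chr2:227813742-227813841, plus strand: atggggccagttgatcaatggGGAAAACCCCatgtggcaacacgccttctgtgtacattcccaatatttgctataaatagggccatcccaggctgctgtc
CFB, chr6:31945995-31946094, plus strand: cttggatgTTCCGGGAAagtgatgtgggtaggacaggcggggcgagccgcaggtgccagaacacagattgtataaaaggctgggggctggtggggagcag
The NF-κB letters stood within 250 bases upstream of 9 of the 23 NF-κB pathway genes with a promoter in the table and of 7 of the 14 chemokine and colony-stimulating factor genes, against 2.12% of all genes with a promoter. They stood in none of the 10 complement, 10 interleukin-1 family and 7 acute-phase genes that have a promoter there. At a share of 2.12% over all genes, groups this small would mostly hold none, so that absence is no result. The NF-κB list was made of known pathway genes and targets, so its share is no independent support either. Of the 9 NF-κB pathway genes with a match, TNFAIP3, TNIP1, NFKB1, CYLD and NFKB2 had an unadjusted p under 0.05, and NFKBIZ, REL, NFKBIB and NFKBIA had not. The STAT letters stood upstream of 10 of 33 interferon-stimulated genes and of CFB, C1R and CD59 among the complement genes, against 8.09% of all genes. A match is a run of letters and not a measured binding site.

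Of 11 measured members of the interleukin-1 family, IL1A was lower and IL33, another alarmin, higher at an unadjusted p under 0.05, and the median log2 fold change was -0.19. IL33 was at 3.73, 4.47 and 5.91 with TFPIα, 3.02, 3.81 and 4.46 with TFPIβ and 3.09, 3.29 and 3.83 with empty vector, so that the TFPIβ arrays straddled the controls, and it was kept through replicate 3 of TFPIα alone, the 1 array over the signal floor. Its log2 fold change was 0.83 (SE 0.22, adjusted p = 0.311), with 1.30 for TFPIα and 0.36 for TFPIβ. IL1B had a log2 fold change of -0.59 and IL1R1, the signalling receptor, of -0.55, both with an unadjusted p over 0.05.

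Among 20 chemokines, colony-stimulating factors and genes of the interleukin-6 family, CSF3, CSF1, OSMR and CCL20 had an unadjusted p under 0.05, all lower. CSF3 was at 6.50, 6.69 and 6.98 with TFPIα, 6.19, 6.02 and 6.36 with TFPIβ and 7.08, 7.10 and 7.25 with empty vector, and the TFPIβ arrays were the lowest. CSF1, the macrophage growth factor, had a log2 fold change of -0.41 and OSMR, the oncostatin M receptor, of -0.30. CCL20, a chemokine that draws dendritic cells and lymphocytes, had a log2 fold change of -1.01 (SE 0.34). The count of 4 lay between 1, without replicate 2 of the empty vector, and 7, without replicate 3 of TFPIα.

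Interferon responses run through JAK kinases and STAT factors to antiviral and antigen-presenting genes, and members of each step lay lower. In the JAK/STAT list 7 of 24 measured genes were lower and SOCS6 was higher at an unadjusted p under 0.05. STAT3 was at 9.54, 9.29 and 9.41 with TFPIα, 9.69, 9.43 and 9.07 with TFPIβ and 9.76, 9.82 and 9.79 with empty vector, a log2 fold change of -0.39 (SE 0.12, adjusted p = 0.338), with no overlap. STAT4 had a log2 fold change of -0.79, JAK1 of -0.30, PIAS1, an inhibitor of STAT factors, of -0.40 and IFNGR1, a chain of the interferon-γ receptor, of -0.57. The count of 7 was 1 without replicate 3 of the empty vector and 8 without its replicate 1.

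Of 40 interferon-stimulated genes, 11 had an unadjusted p under 0.05, all lower, and the median log2 fold change was -0.18. IFI44L, an antiviral effector, was at 7.34 to 7.94 with a median of 7.64 in the arrays labelled TFPI and at 8.11, 8.28 and 7.97 in the controls, a log2 fold change of -0.46. TRIM22 had a log2 fold change of -0.71, PARP14 of -0.31 and IFI35 of -0.30. In class I antigen presentation, 4 of 14 genes had an unadjusted p under 0.05, all lower: ERAP1, which trims peptides, at -0.62 (SE 0.13, adjusted p = 0.264), TAPBPL at -0.54, PSMB9 at -0.43 and TAP1, a peptide transporter, at -0.34 on the log2 scale. The interferon count of 11 lay between 3, without replicate 2 of the empty vector, and 13, without replicate 2 of TFPIβ, and the count of 4 lay between 1, without replicate 2 of the empty vector, and 5, without its replicate 1.

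Cells turn on the ATF4 and unfolded protein responses when amino acids run short or proteins misfold. Of 31 genes measured, 14 were lower and none higher at an unadjusted p under 0.05. The median log2 fold change was -0.28, with -0.31, -0.06 and -0.33 in replicates 1, 2 and 3. For the 15 amino acid response targets, with 8 of the 14, the replicate medians were -0.48, 0.02 and -0.65. CHAC1 and VLDLR were kept through empty vector arrays only, so a lower value of these is no support. DNAJB9, a chaperone of the endoplasmic reticulum, was at 5.36 to 5.96 with a median of 5.59 in the arrays labelled TFPI and at 6.84, 6.04 and 6.07 in the controls, a log2 fold change of -0.68 (SE 0.13, adjusted p = 0.261). HERPUD1, of the same response, had a log2 fold change of -0.52, EDEM1 of -0.35 and ATF4 itself of -0.42. ASNS, asparagine synthetase, had a log2 fold change of -1.42 with an SE of 0.53, since its control signal was 9.15 and 9.12 in replicates 1 and 3 but 6.23 in replicate 2, where the arrays labelled TFPI were no lower. The count of 14 was 6 without replicate 3 of the empty vector.

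Among 17 amino acid transporters, 5 were lower and 2 higher at an unadjusted p under 0.05. SLC7A2, which carries arginine and lysine, was at 7.83, 7.73 and 8.14 with TFPIα, 7.93, 6.24 and 7.23 with TFPIβ and 9.08, 8.90 and 8.85 with empty vector, a log2 fold change of -1.43 (SE 0.27, adjusted p = 0.252). SLC6A9, a glycine carrier, had a log2 fold change of -0.76, SLC1A5 of -0.35 and SLC1A1 of 0.46. The lower count was 1 without replicate 3 of the empty vector.

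Of 27 zinc transporters and metallothioneins, 4 were lower and 1 higher at an unadjusted p under 0.05. The importer SLC39A14 was at 7.15 to 8.04 with a median of 7.54 in the arrays labelled TFPI and at 8.60, 8.60 and 8.58 in the controls, a log2 fold change of -1.02 (SE 0.15, adjusted p = 0.169). The importer SLC39A8 had a log2 fold change of -1.58 (SE 0.38), with replicate 3 of TFPIα at 10.26 against 8.51 to 9.39 in the other 5 arrays labelled TFPI. SLC30A1, which exports zinc, was on the higher side at 0.68, and MT1X, a metal-binding metallothionein, was at -0.33, both as log2 fold changes. The lower count was 2 without any 1 of replicates 1 and 2 of TFPIα, any replicate of TFPIβ or replicate 2 of the empty vector.

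DNA replication genes had the highest median of all lists, a log2 fold change of 0.64. All 56 measured members had a log2 fold change above 0, and 28 had an unadjusted p under 0.05, all higher, against 6.80% of all probe sets. POLE2 among the 56 was kept through arrays labelled TFPI only, so its direction is no support. The groups overlapped for nearly all members: the mean log2 signal of the list was 7.52, 7.60 and 7.77 in the TFPIα arrays, 6.63, 5.97 and 7.73 in the TFPIβ arrays and 6.85, 6.12 and 6.65 in the empty vector arrays. Replicate 3 of TFPIβ thus lay with the TFPIα arrays and its other 2 replicates lay just under the controls of their number, and after the replicate means were taken out DUT, which keeps uracil out of DNA, was the 1 member that did not overlap. MCM4, a subunit of the replicative helicase, was at 8.35, 8.87 and 9.07 with TFPIα, 7.15, 7.04 and 9.07 with TFPIβ and 7.17, 6.72 and 7.06 with empty vector, a log2 fold change of 1.27 (SE 0.35, adjusted p = 0.312). MCM10 had a log2 fold change of 1.31, PCNA, the sliding clamp, of 0.89, GMNN of 0.88 and TK1, thymidine kinase, of 0.70. The median of the list was 1.10 for TFPIα and 0.23 for TFPIβ against the same 3 controls. The count of 28 was 0 without replicate 3 of the empty vector, 5 without its replicate 2, 13 without replicate 2 of TFPIα and 47 without replicate 2 of TFPIβ.

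Mitosis genes had a median log2 fold change of 0.43, with 0.87 for TFPIα and -0.03 for TFPIβ, and 1 of 48 measured was higher and 1 lower at an unadjusted p under 0.05. The lower one was CDC25B, a phosphatase that starts mitosis, at a log2 fold change of -0.24, and the higher one MAD2L1, of the spindle checkpoint, at 0.73. The higher count was 26 without replicate 2 of TFPIβ. Among 26 G1 regulators, CDK6 had a log2 fold change of 0.62, CCND3 of 0.35, CDK2 of 0.69 and RBL2, a retinoblastoma-like repressor, of -0.24, and 5 were higher and 1 lower at an unadjusted p under 0.05. That higher count was 0 without replicate 3 of the empty vector and 9 without its replicate 1.

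**Figure D3:**
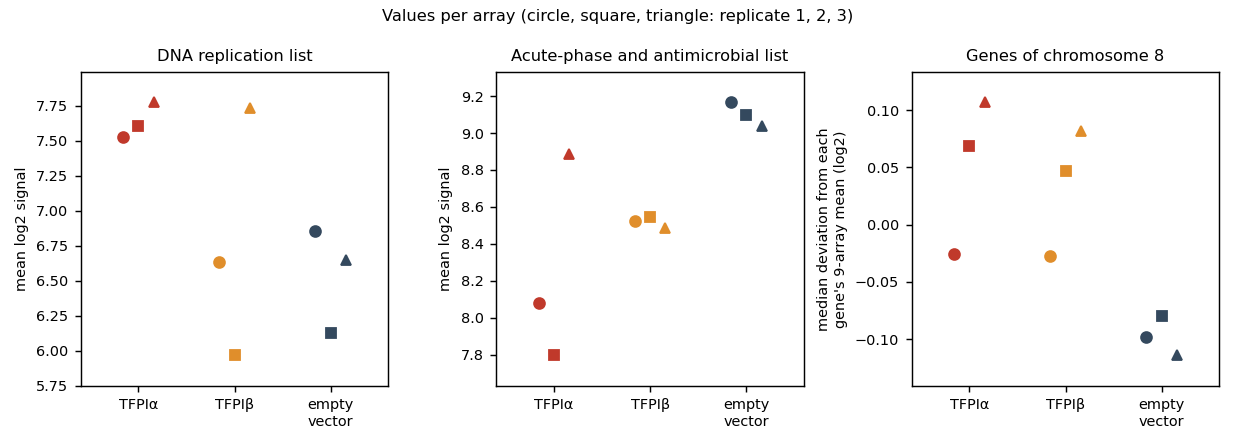
Values per array by group, with the replicate number as the point shape: mean log2 signal of the 56 DNA replication genes, mean log2 signal of the 13 acute-phase and antimicrobial genes, and median deviation of the genes of chromosome 8 from their 9-array means. Replicate 3 of TFPIβ lies with the TFPIα arrays in the first, and the 3 controls lie apart from the 6 arrays labelled TFPI in the others.

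The position of the genes gave a further difference between the groups. Of 11223 genes with a chromosome, by the gene order of GRCh38, 397 lie on chromosome 8, and 126 of these (31.7%) were higher at an unadjusted p under 0.05, against 6.41% of the genes on the other 22 chromosomes, where the share ran from 3.51% to 12.5%. The median log2 fold change of chromosome 8 was 0.15, with 0.15 for TFPIα and 0.16 for TFPIβ, while the other chromosomes had medians from -0.00 to 0.03. The median deviation of its genes from their own 9-array means was -0.03, 0.07 and 0.11 in the TFPIα arrays, -0.03, 0.05 and 0.08 in the TFPIβ arrays and -0.10, -0.08 and -0.11 in the empty vector arrays. The 3 controls lay below all 6 arrays labelled TFPI, and replicate 1 was the lowest of both isoforms. The count of 126 lay between 47, without replicate 3 of the empty vector, and 160, without its replicate 1.

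The difference was uneven along the chromosome. In windows of 40 neighbouring genes taken in steps of 20, the first 6 windows, from FBXO25 to TCEA1, had medians from -0.02 to 0.04, and the next 9 overlapping windows, from VDAC3 to DENND3, had medians from 0.25 to 0.43, with 18 to 27 of the 40 genes higher at an unadjusted p under 0.05. In these 9 windows the median ran from 0.26 to 0.42 for TFPIα and from 0.25 to 0.37 for TFPIβ, against the same controls. Past DENND3 the medians were 0.05 to 0.15. Of the other windows of the genome 2 passed 0.2, both on chromosome 6 and overlapping, from SOX4 to TOB2P1 across the main histone cluster, and there the TFPIα medians were 0.46 and 0.63 and the TFPIβ medians 0.13 and 0.11. GEM and CPNE3, named above, lie on chromosome 8, as do MCM4 and the oxidative phosphorylation genes NDUFB9, COX6C and CYC1. SLC7A2 and SLC39A14 lie there as well and were lower. DNA copy number was not measured in these files, and its part was not tested.

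**Figure D4:**
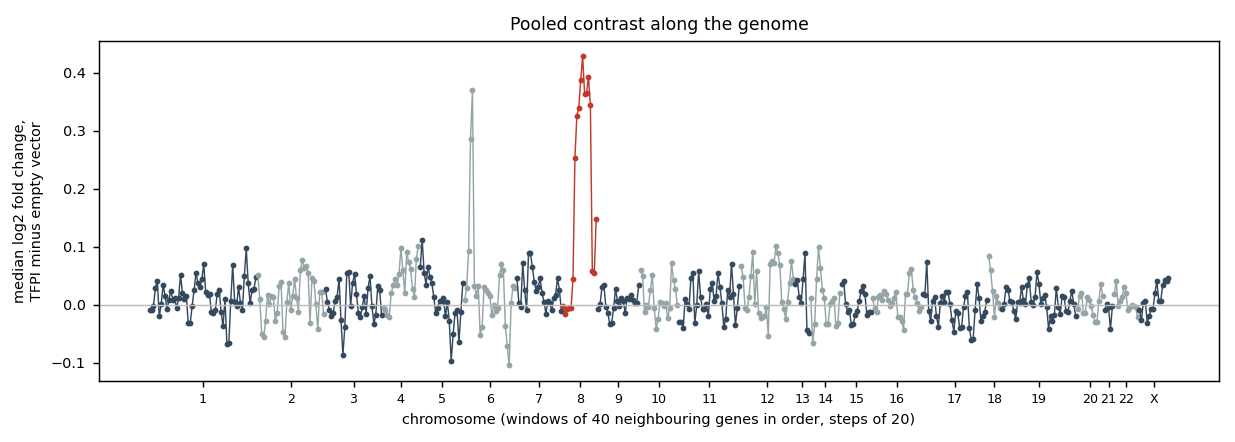
Median pooled log2 fold change (vertical axis) in windows of 40 neighbouring genes in steps of 20 (each point 1 window) along chromosomes 1 to 22 and X in gene order; chromosome 8 is red and the other chromosomes alternate in shade. The 9 raised windows of chromosome 8 reach 0.43, and the narrow peak on chromosome 6 that reaches 0.37 holds the main histone cluster.

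Oxidative phosphorylation genes, which encode the respiratory chain, had a median log2 fold change of 0.09, and 7 of 32 were higher at an unadjusted p under 0.05 with none lower. NDUFB9, of complex I, was at 9.44 to 9.87 with a median of 9.66 in the arrays labelled TFPI and at 9.15, 9.19 and 9.01 in the controls, a log2 fold change of 0.54 (SE 0.10, adjusted p = 0.253). NDUFB3, also of complex I, had a log2 fold change of 0.48, COX6C, of complex IV, of 0.51 and CYC1, of complex III, of 0.47. Of the 7, 3 lie on chromosome 8, and 4 of the 28 members elsewhere remain. Among 25 ribosomal protein genes, RPS20 and RPL7 were higher at log2 fold changes of 0.28 and 0.22, and both lie on chromosome 8. The oxidative phosphorylation count was 4 without replicate 3 of the empty vector.

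Lipid synthesis genes went both ways, with 5 higher and 4 lower of 30 at an unadjusted p under 0.05. SCD, which desaturates fatty acids, was at 9.71 to 10.76 with a median of 10.38 in the arrays labelled TFPI and at 9.90, 9.43 and 9.90 in the controls, which overlap until the replicate means are taken out, a log2 fold change of 0.55 (SE 0.10, adjusted p = 0.252). FADS1, another desaturase, had a log2 fold change of 0.42 and FASN, fatty acid synthase, of 0.49. ACSL1, which activates long-chain fatty acids, was lower at -0.86 (SE 0.20) and SREBF2, the regulator of cholesterol synthesis, at -0.28. The higher count was 2 without replicate 3 of the empty vector and the lower count 1 without its replicate 2.

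Of the growth factor receptors, EGFR, the receptor of epidermal growth factor, was at 7.30, 6.95 and 6.96 with TFPIα, 7.39, 7.63 and 6.79 with TFPIβ and 7.37, 7.57 and 7.30 with empty vector, which overlapped, and its log2 fold change was -0.24 (SE 0.15, adjusted p = 0.516). ERBB2 had a log2 fold change of -0.06 (SE 0.14, adjusted p = 0.88), a sign that turned without single arrays, at 0.01 without replicate 2 of TFPIα and 0.14 without replicate 2 of the empty vector. IGF1R, the receptor of insulin-like growth factors, was at 6.82, 6.67 and 6.92 with TFPIα, 7.18, 7.11 and 6.87 with TFPIβ and 7.30, 7.52 and 7.58 with empty vector. No array labelled TFPI reached the controls, and the log2 fold change was -0.54 (SE 0.12, adjusted p = 0.268), while a second probe set of the gene gave -0.34. In the IGF list of 9 measured genes, IGF2R had a log2 fold change of -0.39, IGFBP2 of -0.21 and IRS1, kept through arrays labelled TFPI only, of 0.44, and 2 were higher and 3 lower at an unadjusted p under 0.05. The lower count lay between 1, without replicate 2 of TFPIα, and 5, without replicate 1 of the empty vector, and the higher count between 1 and 3. Of the 10 EGF family genes EPGN alone had an unadjusted p under 0.05, at a log2 fold change of 0.28.

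The tissue factor pathway itself was represented by 14 measured genes, of which 1 was higher and 3 lower at an unadjusted p under 0.05. F3, the gene of tissue factor, was at 6.46, 7.42 and 7.91 with TFPIα, 6.46, 6.12 and 6.95 with TFPIβ and 6.37, 6.09 and 6.07 with empty vector. All 6 arrays labelled TFPI lay above the control of their own number, but by little in replicate 1 and in replicate 2 of TFPIβ. The groups overlapped, also once the replicate means were taken out. The log2 fold change of F3 was 0.70 (SE 0.28, adjusted p = 0.38), with 1.08 for TFPIα and 0.33 for TFPIβ. F2R, a thrombin receptor, had a log2 fold change of -0.42 and PROS1, the gene of protein S and a cofactor of TFPIα, of -0.47. The higher count lay between 0 and 3 and the lower count between 1 and 5, lowest without replicate 2 of TFPIα and highest without replicate 1 of the empty vector.

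Among adhesion and matrix genes, CLDN1, a tight junction protein, was at 7.74, 6.47 and 6.84 with TFPIα, 7.90, 6.47 and 5.64 with TFPIβ and 8.96, 7.82 and 7.81 with empty vector, a log2 fold change of -1.36 (SE 0.22, adjusted p = 0.221), and it was the 1 of 25 junction and EMT genes with an unadjusted p under 0.05. FBN2, a fibrillin, had a log2 fold change of -0.96 (SE 0.19) and FN1, fibronectin, of 1.09 (SE 0.32), with FN1 at 1.63 for TFPIα and 0.55 for TFPIβ. In the matrix list 3 were higher and 3 lower of 30 at an unadjusted p under 0.05. Of 19 integrin, laminin and hemidesmosome genes 6 were lower and 2 higher, among them LAMB1 at a log2 fold change of -0.69, ITGA3 at -0.28, ITGA2 at 0.30 and PLEC at 0.28. The lower counts of both lists moved without single controls, to between 2 and 6 in the matrix list and to between 2, without replicate 3 of the empty vector, and 8, without its replicate 1, in the integrin list.

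In the Wnt list FZD4, a Wnt and norrin receptor, was the 1 of 35 with an unadjusted p under 0.05. It was at 6.16, 5.48 and 5.58 with TFPIα, 6.72, 7.02 and 5.99 with TFPIβ and 7.32, 7.92 and 7.61 with empty vector, a log2 fold change of -1.46 (SE 0.24, adjusted p = 0.221). In the TGF-β list of 21, ID3, an inhibitor of basic helix-loop-helix factors, had a log2 fold change of 0.75, LTBP1, which stores latent TGF-β, of -0.50 and the receptors ACVR1B and TGFBR2 of -0.37 and -0.23, with 4 lower and 1 higher at an unadjusted p under 0.05. The lower count was 1 without replicate 3 of the empty vector.

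In glycolysis and hypoxia 6 of 37 were lower and 2 higher at an unadjusted p under 0.05, with HK2, hexokinase, at a log2 fold change of -0.62 (SE 0.11, adjusted p = 0.252), CA12 at -0.54, ALDOC at -0.38 and HIF1A at -0.28. In the NRF2 list 4 of 26 were higher, among them TXN at 0.23, NQO1 at 0.28 and GCLM at 0.59. AKR1B10, also among these 4, was kept through arrays labelled TFPI only, so its direction is no support. Of 30 apoptosis genes 4 were higher and 2 lower, with CASP9 at -0.40 and CASP6 at 0.47. TGM1, a crosslinker of the cornified envelope, had a log2 fold change of -1.06 and JAG1 of -0.23, the 2 of 18 squamous genes with an unadjusted p under 0.05. ETS2 and FOSL2 were the 2 of 30 immediate early and MAPK feedback genes, at -0.73 and -0.50, and GPNMB, kept through arrays labelled TFPI only, and GLA the 2 of 24 lysosome genes, at 0.71 and 0.40. In the list of chromatin and general transcription genes, kept as a comparison, TAF2 and EZH2 had an unadjusted p under 0.05, 2 of 26, and the median log2 fold change was 0.01. These counts rested on single arrays: without replicate 3 of the empty vector the higher count was 0 in apoptosis, in glycolysis and hypoxia and in the chromatin list, and without its replicate 2 it was 1 in the NRF2 list, 2 in apoptosis and 0 in the lysosome and chromatin lists. In the NRF2 list it was 2 without replicate 1 or 3 of TFPIβ, and in apoptosis 2 without replicate 3 of either isoform. The immediate early list, with none higher, had 5 higher without replicate 1 of TFPIα and none lower without replicate 2 or 3 of the empty vector, and the squamous list had 4 lower without replicate 1 of the empty vector. The lysosome and chromatin lists each had 4 higher without that array.

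**Figure D5:**
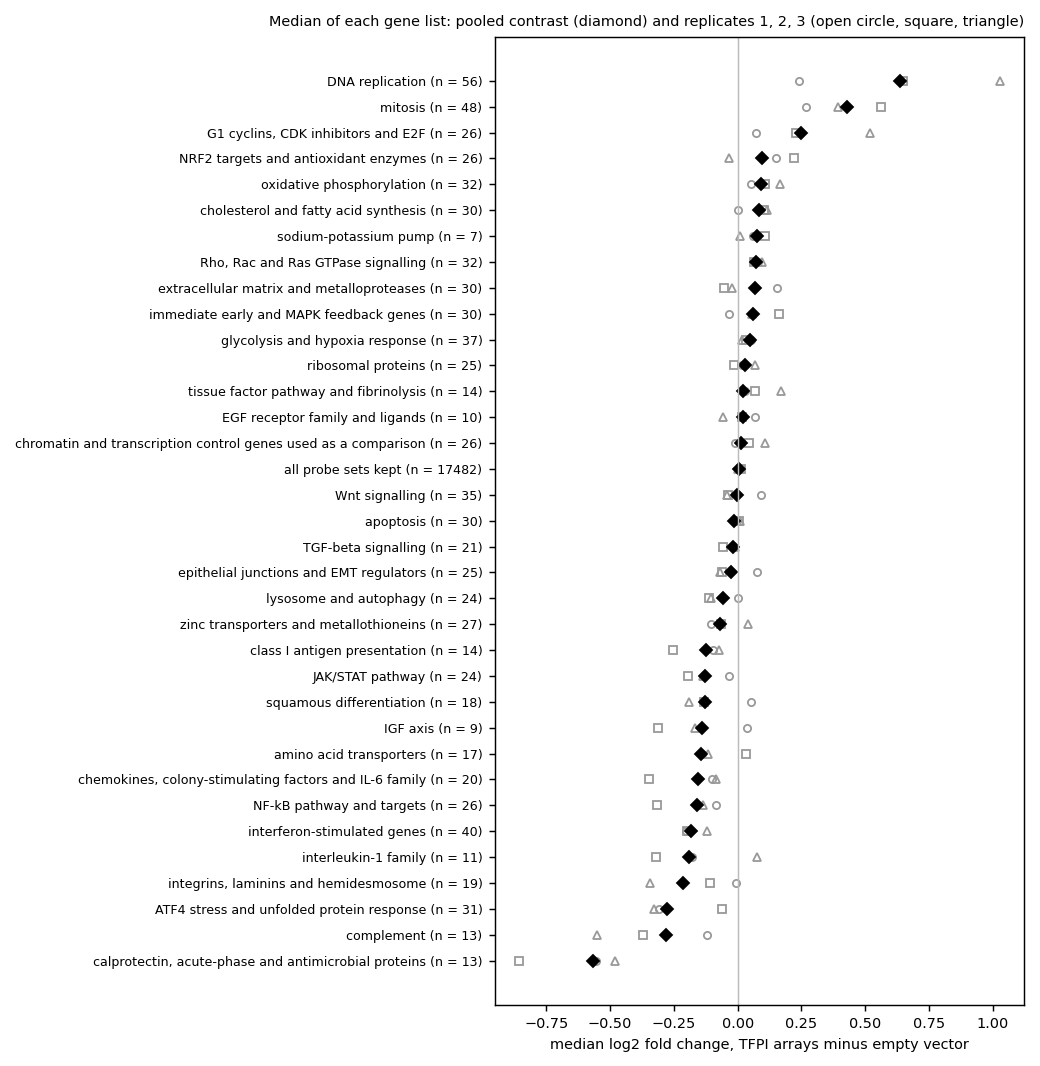
Median log2 fold change, arrays labelled TFPI minus empty vector (horizontal axis), of 34 gene lists and of all 17482 probe sets; diamonds are the pooled contrast and open circles, squares and triangles are replicates 1, 2 and 3. The acute-phase list is lowest at -0.57 and the DNA replication list highest at 0.64, with replicate values from 0.24 to 1.03.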

How the data were processed

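RNA from 9 samples of cells labelled SK-BR-3 (3 TFPIα, 3 TFPIβ, 3 empty vector) was hybridised to Affymetrix Human Gene 1.0 ST arrays. The authors deposited log2 signals per probe set, made with RMA (background correction, quantile normalization and summary of probes); the submitters' processing notes name Partek and RMA, and the log base, not given in the sources used here, was taken as 2 as is usual for RMA. Quantile normalization gives all arrays a like distribution, so a shift of all genes together could not be seen. The depth of an array is set by its number of probes, and 3 arrays a group limit the precision.

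Probe sets were named from the platform annotation: of 17482 kept, 11838 had 1 gene symbol, 1150 several and 4494 none. A gene with several probe sets is represented in lists by the one of highest mean signal. Limma 3.58.1 in R 4.3.3 fitted the 3 group means with the replicate number as a block, leaving 4 residual degrees of freedom, and tested the mean of both isoforms against empty vector with eBayes and Benjamini-Hochberg adjustment. The block was kept because the deviations of same-numbered arrays from their group means correlated in each of 9 pairs (r from 0.14 to 0.59, against -0.51 to 0.27 in the 18 other pairs). The TFPIα and TFPIβ contrasts share their 3 controls. The script was tested on simulated data.

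Named genes are TFPI, the 10 genes in each direction with the lowest unadjusted p, up to 4 members of each list by the lowest p, and ATP1B1, IL1A, EGFR, ERBB2, ERBB3, IGF1R and STAT3; further members were named after their values were seen. The comparison, the gene lists and the markers were chosen with earlier results of these data known. The alternatives were no replicate block, the 6 arrays as 1 group, no variance moderation, a trended and robust variance prior, other signal filters, centring, probe sets with 1 symbol, other thresholds and each array or replicate number left out. The counts by chromosome, and list counts with arrays left out, were chosen after seeing the data. Promoters and gene order are those of GRCh38.p14 in RefSeq.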

Additional observations from a re-analysis of the deposited data

How the results depend on the processing

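All values below are for the arrays labelled TFPI against the arrays labelled empty vector. No probe set was called at an adjusted p under 0.05 with a fold of at least 2, where 2225 had an unadjusted p under 0.05. Taking the 6 arrays as 1 group gave 1 call (NEDD4L, adjusted p = 0.0489), and testing only probe sets with 1 gene symbol gave 3 (ATP1B1, NEDD4L and IL1A, adjusted p = 0.0462), as fewer were tested. An adjusted p under 0.10 gave 3, with the fold limit and without it. With single arrays or replicate numbers left out the calls ran from 0 to 3: S100A9, SAA2 and SLC39A8 without replicate 3 of TFPIα, IL1A without replicate 3 of TFPIβ, and 1 unnamed probe set without replicate 1 of TFPIα. Without the replicate block there was no call, and the counts at an unadjusted p under 0.05 were 783 higher and 649 lower in place of 1188 and 1037. With arrays or replicate numbers left out the higher count ran from 478, without replicate 3 of the empty vector, to 1959, without its replicate 1, and the lower count from 503, without replicate 3 of all groups, to 1449. On signals as deposited, 279 probe sets lay above and 341 below the controls in all 6 arrays, in place of 675 and 793. Of 151 genes followed, ERBB2 changed sign, to 0.01 without replicate 2 of TFPIα and to 0.14 without replicate 2 of the empty vector or of all groups, and ran from -0.26 to 0.14 with arrays left out. Medians of the NF-κB, acute-phase, interleukin-1 and complement lists moved by less than their spread over replicates in every setting tried, and with arrays left out ran from -0.24 to -0.10, -0.71 to -0.42, -0.37 to -0.05 and -0.42 to -0.20. Of 34 lists, 19 had a median below 0, and 15 to 21 with arrays left out. The causes of these shifts were not tested. Each group is 1 transfected pool, so no setting separates construct from pool.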
